A study of Mus musculus with 28 samples.

Results

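The 6 genes Myl7, Myl4, Sln, Bmp10, Kcnj3 and Kcnj5, which are used as marks of atrial heart muscle, were followed in pieces of mouse ventricle by bulk RNA sequencing. They are 6 of the 39152 gene symbols in the deposited count table and were picked by name, since some libraries from the right ventricle (RV) of Pkp2-deleted mice without gene therapy held high levels of them. The values that led to the choice are therefore described below with no test. Tests were run only on left ventricle (LV) libraries and on RV libraries of the other groups.

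There were 28 libraries from 16 C57BL6 mice, 16 from LV and 12 from RV, and 12 animals gave both ventricles. The cKO animals carried αMyHC-Cre-ER(T2), a Cre recombinase driven in heart muscle cells and switched on by tamoxifen, with Pkp2 fl/fl, and received the buffer HBSS (4 LV, 4 RV libraries). The 3E13 (4 LV, 2 RV) and 6E13 (3 LV, 3 RV) animals had the same genotype and received that many vector genomes per kg (vg/kg) of TN-401, an AAV9 vector with the human PKP2 gene, 1 week before tamoxifen. WT animals were Pkp2 fl/fl littermates without Cre that received HBSS (5 LV, 3 RV), so floxed Pkp2 was shared by all groups. The sample records place the injection, of HBSS or of TN-401, 1 week before tamoxifen in every group, WT included. The series title gives a time of about 10 weeks, and the sources used here give no separate collection time for the buffer-treated cKO animals. The authors report that buffer-treated cKO mice in other experiments died within weeks of the deletion. A part of time in the differences from cKO was not tested and cannot be told apart from the deletion in this design. Nothing in those sources says how the RV and LV pieces were cut from the heart.

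Total counts per library ran from 19364737 to 39381144, so that 3 counts, the limit that a count of 0 allows, were worth between 0.0864 and 0.162 CPM (counts set to a common library size by the TMM method). Intervals and such floors cover counting error only. Mouse Pkp2 averaged 44.5 ± 10.7 CPM in cKO LV and 118 ± 7.66 CPM in WT LV (SD, n = 4 and 5), and 32.5 ± 3.97 CPM in cKO RV and 111 ± 4.89 CPM in WT RV (SD, n = 4 and 3). Human PKP2 had 0 counts in every cKO and WT library and at least 3181 counts in every TN-401 library. The libraries thus matched their labels in this respect.

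Atrial and ventricular muscle cells build the same contractile machine from partly different parts. Myl7 encodes the atrial regulatory light chain of myosin and Myl4 the atrial essential light chain, whose ventricular counterparts are Myl2 and Myl3. Sln encodes sarcolipin, a small membrane protein that inhibits the calcium pump SERCA and in mice is found mainly in atria, while phospholamban (Pln) has this role in ventricles. Bmp10 encodes a secreted ligand of the BMP family that is made by ventricular trabeculae in the mouse embryo and mainly by the right atrium in the adult. Kcnj3 and Kcnj5 encode GIRK1 and GIRK4, the subunits of the acetylcholine-activated potassium channel, by which the vagus nerve slows the atria and the sinoatrial node. RNA in a piece of tissue is a mixture, and fewer cells of a type and less RNA per cell cannot be told apart.

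All 6 genes are annotated as protein coding in the GENCODE annotation of GRCm39, the build used by the authors. Myl7 lies at chr11:5845449-5848792 on the minus strand and Myl4 at chr11:104440903-104486603 on the plus strand. Sln (chr9:53742537-53761846, plus) and Kcnj5 (chr9:32223328-32255691, minus) share a chromosome with each other but not a neighbourhood. Bmp10 lies at chr6:87405969-87415616 (plus) and Kcnj3 at chr2:55325801-55488157 (plus). The promoters of Myl7 and Bmp10 are shown because these genes, as given below, were high in the same libraries but in different proportions. Each run is the 250 bases before the start site in RefSeq (GRCm38.p6), read 5′ to 3′ on the gene's strand, at chr11:5898783-5899032 for Myl7 (minus) and chr6:87428744-87428993 for Bmp10 (plus). Capitals mark a CArG box, the element that serum response factor binds, and the GATA-type word AGATAA.
Myl7: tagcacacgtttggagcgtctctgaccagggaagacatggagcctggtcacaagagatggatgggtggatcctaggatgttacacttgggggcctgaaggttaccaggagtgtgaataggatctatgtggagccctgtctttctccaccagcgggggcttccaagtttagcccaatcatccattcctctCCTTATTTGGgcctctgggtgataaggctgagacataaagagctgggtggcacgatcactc
Bmp10: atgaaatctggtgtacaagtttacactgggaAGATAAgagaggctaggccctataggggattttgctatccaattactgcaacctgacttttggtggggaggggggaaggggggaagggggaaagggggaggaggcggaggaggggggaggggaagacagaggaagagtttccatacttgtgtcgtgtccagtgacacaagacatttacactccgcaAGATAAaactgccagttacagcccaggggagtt
The Myl7 run held a CArG box from 61 to 52 bases before the start and no AGATAA, and the Bmp10 run held AGATAA at 219 to 214 and at 33 to 28 bases before the start and no CArG box. AGATAA was the only GATA-type word searched, and the printed Myl7 run holds tgataa, which differs from it in the first base only. The contrast between the runs thus covers the exact words searched and no wider class of GATA words. Of 32851 promoter runs of this length, 1.47% held a CArG box and 9.99% held AGATAA on either strand. The T-box word AGGTGT, the NKX2-5 word AAGTG, the MEF2 word TAAAAATA and the nuclear receptor word AGGTCA were searched on both strands too. Of these, AAGTG was found once in the run of Myl7, on the opposite strand, and none was found in that of Bmp10. AAGTG was held by 40.7% of all runs, AGGTGT by 11.8%, TAAAAATA by 2.45% and AGGTCA by 14.0%. These are matches of letters, no binding was measured, and a relation of the words to the levels of the genes was not tested. RefSeq entries were matched for 5 of the 6 genes, all but Sln.

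Myl7, Myl4, Sln and Bmp10 were high in the RV of 3 of the 4 cKO animals, the animals 177, 180 and 257, and at or near the level of other libraries in the RV of cKO animal 264. For Myl7, Myl4 and Sln, the levels in animals 180 and 257 were many times those in animal 177. Bmp10 was less far apart in animals 177 and 180, at 28.2 and 52.4 CPM, and had 404 CPM in animal 257. Kcnj3 and Kcnj5 did not share this pattern: they were present in every ventricle library. In CPM they were lower in all cKO RV than in all WT RV libraries, whereas by length-corrected level these groups overlapped. The name atrial muscle genes comes from the usual use of these genes as marks. The levels in cKO RV led to the choice, and whether the transcripts of the first 4 members came from atrial muscle was not tested. Kcnj3 and Kcnj5 were ordinary transcripts of all the ventricle pieces.

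Myl7 had 2.09, 81.9, 45.0 and 0.0365 CPM in the cKO RV libraries of animals 177, 180, 257 and 264, against 0.613 CPM in WT RV of animal 636 and 0 counts in WT RV of animals 637 and 647. The 3 high libraries held 64, 2040 and 1460 counts, that of animal 264 held 1 count, and the highest WT RV library held 13. Relative to that WT library, Myl7 was 3.41-fold, 134-fold and 73.4-fold higher in cKO RV of animals 177, 180 and 257. In the RV of TN-401 animals Myl7 reached at most 0.164 CPM at 3E13 and 0.335 CPM at 6E13. Of the 24 libraries that were not cKO RV, 17 had 0 counts, and all 24 lay below the 3 high ones.

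Myl4 was the most abundant of the 4 transcripts in each cKO RV library by length-corrected level, with 247 and 256 TPM (deposited transcript levels, corrected for length and scaled to a common total) in animals 180 and 257. It had 7.27, 174, 157 and 1.68 CPM in cKO RV of animals 177, 180, 257 and 264, against 1.04, 0.746 and 1.02 CPM in WT RV of animals 636, 637 and 647. All 4 cKO RV libraries were above all WT RV libraries, and also above each of the 24 other libraries, whose highest was 1.54 CPM in the LV of cKO animal 257. Unlike Myl7, the gene had at least 7 counts in every library, so a low level of Myl4 was part of all ventricle pieces. RV libraries of 3E13 animals had 1.38 and 1.28 CPM, and those of 6E13 animals had 0.781, 0.944 and 0.671 CPM. Among the genes that averaged 1 CPM or more, 22.3% were, like Myl4, higher in all cKO RV than in all WT RV libraries and 23.6% were lower in all of them, so this separation alone was common.

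Myl4 has transcripts of different length, which start at several places along the gene, and the deposited average effective length of Myl4 was 937, 793, 901 and 917 bases in cKO RV of animals 177, 180, 257 and 264, against 816, 1100 and 916 bases in WT RV of animals 636, 637 and 647. The lengths of the high libraries lay within the range over WT RV except that of animal 180, which was the shortest. Levels of Myl4 in TPM and in CPM gave the same separation of groups.

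Sln was the most restricted member. It had 0.489, 26.6 and 19.2 CPM in cKO RV of animals 177, 180 and 257 (15, 663 and 624 counts), and 0 counts in cKO RV of animal 264 and in all 3 WT RV libraries. Taking 3 counts in the shallowest WT RV library as the floor (0.141 CPM), Sln was at least 3.47-fold, 189-fold and 136-fold higher in these 3 libraries. Among the 24 libraries that were not cKO RV, 23 had 0 counts and the LV of 6E13 animal 631 had 2. A count of 0 leaves room for up to 3 counts, so a trace of Sln would not have been detectable at this depth.

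Bmp10 had 28.2, 52.4, 404 and 0.219 CPM in cKO RV of animals 177, 180, 257 and 264, against 0.189, 0.307 and 0.118 CPM in WT RV of animals 636, 637 and 647. It was 91.6-fold, 170-fold and 1320-fold above the highest WT RV library in animals 177, 180 and 257, and 0.712 times that level in animal 264. The highest of the 24 other libraries had 0.438 CPM, in WT LV of animal 647. RV libraries of 3E13 animals had 0.0748 and 0.263 CPM, and those of 6E13 animals had 0.12, 0.035 and 0.0419 CPM, which is 8 counts or fewer in each.

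**Figure D1:**
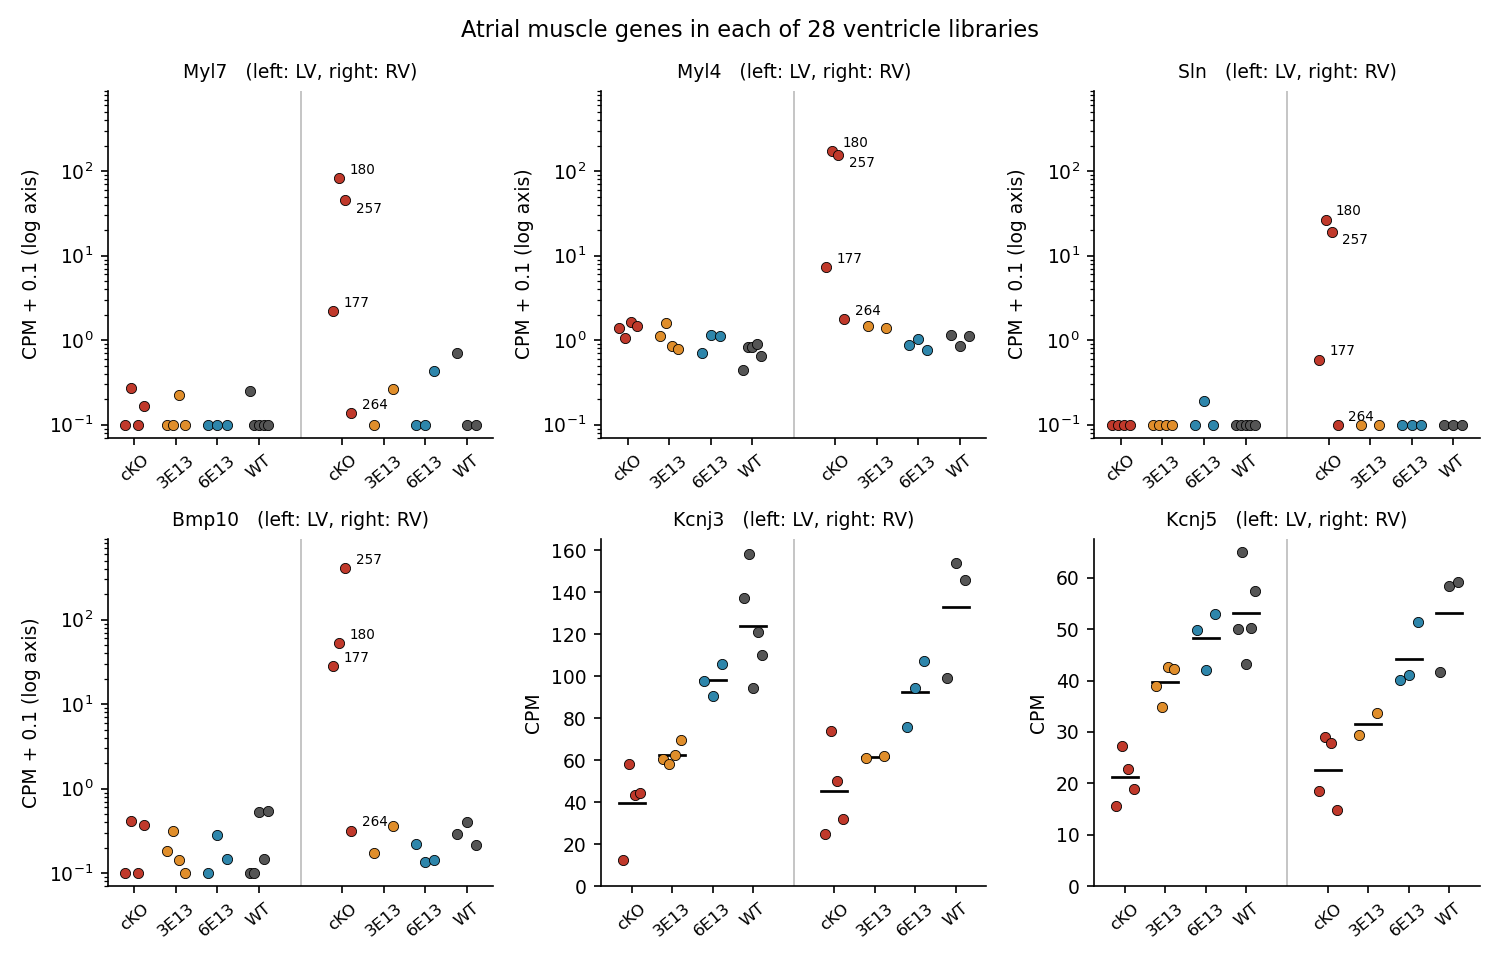
Level of each gene in each library, in CPM, by group within LV (left of the grey line) and RV (right of it). The upper row and Bmp10 have a log axis of CPM + 0.1, Kcnj3 and Kcnj5 have a linear axis from 0 with bars at the group mean. Dots are libraries, and numbers name the cKO RV animals. Animals 177, 180 and 257 stand above all others for Myl7, Sln and Bmp10, whereas Kcnj3 and Kcnj5 are on average lowest in cKO and highest in WT.

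The 4 genes did not keep the same proportions in the 3 high libraries. Myl4 had 2.13, 1.54 and 2.26 times the TPM of Myl7 in cKO RV of animals 177, 180 and 257. Sln had 0.135, 0.21 and 0.241 times the TPM of Myl7. The ratios of each of these genes varied less than 2-fold among animals whose Myl7 level itself ran from 5.86 to 161 TPM. Bmp10 had 1.66, 0.0797 and 1.13 times the TPM of Myl7, so it was far scarcer beside Myl7 in animal 180 than in the others. In the order of levels, animal 180 came first for Myl7 and Sln and animal 257 for Bmp10. These are single libraries, and no replicate of them exists.

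**Figure D2:**
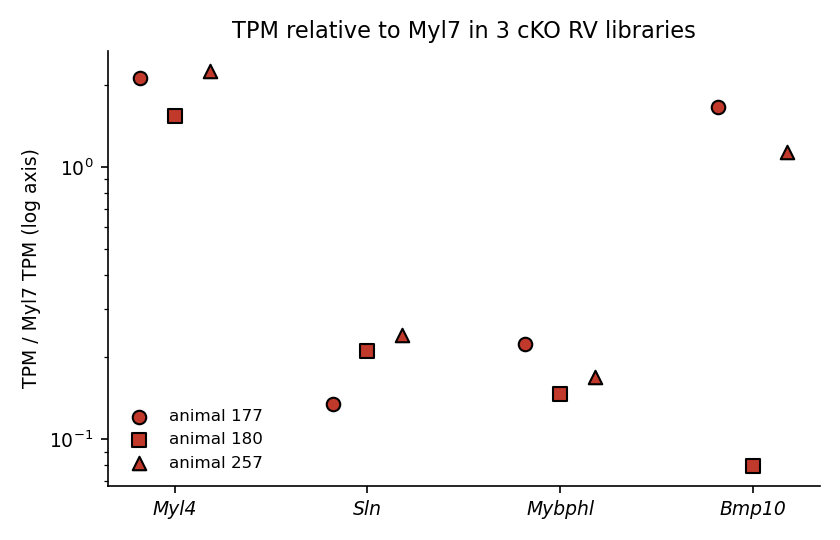
TPM of Myl4, Sln, Mybphl and Bmp10 divided by the TPM of Myl7 (log axis) in the 3 cKO RV libraries with high Myl7. Each marker is 1 library. Ratios of Myl4, Sln and Mybphl stay close together, and that of Bmp10 spans 0.0797 to 1.66.

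The LV of the same animals did not hold these transcripts at such levels. In the LV of animals 177, 180, 257 and 264, Myl7 had 0, 0.174, 0 and 0.0673 CPM, Sln had 0 counts in all 4, and Bmp10 had 0, 0.313, 0 and 0.269 CPM. In RV of the same animals, Myl7 was thus up to 81.9 CPM beside LV values of 0.174 CPM or less. Myl4 had 1.3, 0.974, 1.54 and 1.38 CPM in the LV of these animals. The high levels went with the RV piece, and the LV piece of an animal with a high RV piece was like that of animal 264.

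Other genes that are enriched in atria were read beside the members. Mybphl, a myosin-binding protein H-like protein of atrial muscle, followed Myl7 with 1.31, 23.6, 19.2 and 0.0822 TPM in cKO RV of animals 177, 180, 257 and 264, against 0.0651, 0.168 and 0.291 TPM in WT RV of animals 636, 637 and 647. Nppa, the atrial natriuretic peptide, had 681, 1520, 2010 and 320 TPM in the same cKO RV libraries, against 17.8, 30.2 and 21.9 TPM in WT RV, so animal 264 was above WT for Nppa but not for Myl7, Sln or Bmp10. Dkk3, a secreted protein abundant in atria, had 28.9, 54.7, 58.0 and 22.6 TPM in cKO RV, against 0.352, 0.328 and 0.491 TPM in WT RV. Tbx5, a transcription factor of the atria and the left ventricle, had 12.3, 57.8, 33.8 and 15.6 CPM in cKO RV, against 24, 33.5 and 32.1 CPM in WT RV, and 4.11, 13.4, 10.3 and 4.09 TPM in cKO RV, against 3.95, 4.96 and 4.64 TPM in WT RV. Animals 180 and 257 were above the WT libraries on each scale, and the margin of animal 257 was small in CPM only. By CPM, of the 16 listed atrial genes averaging 1 CPM or more, 4 were higher in all cKO RV than in all WT RV libraries. Another 2, Chrm2 and Kcnk3, were lower in all (22.3% and 23.6% of all genes). The median log2 difference of mean CPM was 0.2, beside -0.01 over all genes. In deposited TPM, Nr2f1, Gja5 and Fam189a2 were higher in all cKO RV libraries too, and Chrm2 and Kcnk3 overlapped. The share of all genes so separated in TPM was not counted. The potassium channel gene Kcna5 and the kinase gene Sbk2, both on this list, overlapped between cKO RV and WT RV.

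**Figure D3:**
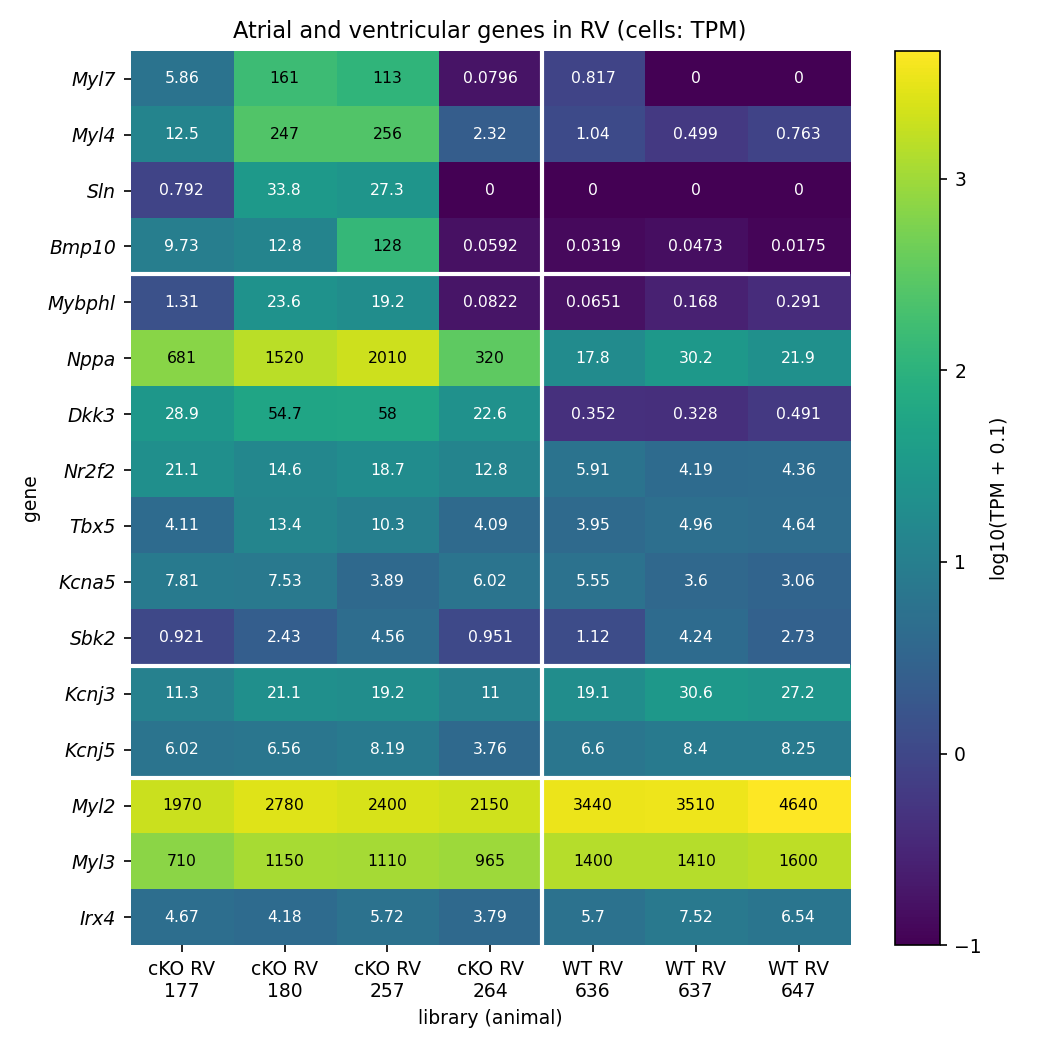
TPM of atrial genes (upper blocks), the GIRK subunits and ventricular genes (lowest block) in 4 cKO RV and 3 WT RV libraries. Numbers are TPM as deposited and colour is log10(TPM + 0.1). Animals 180 and 257 hold at least 113 TPM of Myl7 and of Myl4, and Myl2 and Myl3 remain the leading light chains in every library.

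Markers of ventricular muscle were present throughout. Myl2, the ventricular regulatory light chain, had 1970, 2780, 2400 and 2150 TPM in cKO RV of animals 177, 180, 257 and 264, against 3440, 3510 and 4640 TPM in WT RV, and 1800 TPM or more in each of the 28 libraries. Myl7 thus reached 161 TPM where Myl2 had 2780 TPM, in animal 180. Irx4, a transcription factor of ventricular muscle, had 3.79 to 5.72 TPM in cKO RV and 5.7 to 7.52 TPM in WT RV, where the ranges touched. By CPM, 8 of the 12 genes on the ventricular list were lower in all cKO RV than in all WT RV libraries and 1, Myh7, was higher in all, beside 23.6% and 22.3% of all genes. In deposited TPM, only Myl2, Myl3, Pln, Kcnip2 and Kcnd2 stayed lower in all, and Irx4, Hey2 and Kcnj2 overlapped. Irx3, Irx5 and Kcnj12 were higher in all cKO RV libraries by TPM, as was Myh7. The count for this list thus depended on the scale.

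Lists of other cell types were read in the same libraries. The 9 genes of the sinoatrial node and venous pole summed to 49.3 to 62.1 TPM in cKO RV, against 18.2 to 23.3 TPM in WT RV, with Isl1 and Vsnl1 at 0 in all 28 libraries. Of the 7 of them that averaged 1 CPM or more, 2 (Shox2 and Tbx18) were by CPM higher in all cKO RV than in all WT RV libraries. None was lower in all, and the shares over all genes were 22.3% and 23.6%, so a count of 2 was near the share. The 5 lung markers summed to 0.795 to 1.44 TPM in cKO RV, against 0.0158 to 0.158 TPM in WT RV, with Sftpc and Sftpa1 at 0 in both groups. The 7 epicardial and mesothelial markers summed to 9.88 to 12.6 TPM in cKO RV, where none was at 0 in all 4 libraries, against 1.69 to 2.46 TPM in WT RV, where Msln was at 0 in all 3. Within this list Upk3b, a marker of mesothelium, had 1.25, 0.581, 1.05 and 0.0757 TPM in cKO RV of animals 177, 180, 257 and 264, against 0.0605 to 0.134 TPM in WT RV. It was thus above WT in the same 3 libraries as Myl7, but highest in animal 177, where Myl7 was the lowest of the 3. Upk1b of this list had 0.214 to 1.25 TPM in cKO RV, against 0 to 0.182 TPM in WT RV, so it was above WT in animal 264 too. Lrrn4 had 0.0376 to 0.799 TPM in cKO RV, which overlapped with 0.0812 to 0.101 TPM in WT RV. The 5 adipocyte markers summed to 0.151 to 7.9 TPM in cKO RV (Plin1 at 0), against 0 to 0.113 TPM in WT RV (Adipoq, Plin1, Lep and Ucp1 at 0), and Adipoq had 3.1 TPM in cKO RV of animal 180. The 6 fibroblast markers, none at 0, summed to 1400 to 2600 TPM in cKO RV, against 216 to 248 TPM in WT RV. The share of counts from the mitochondrial genome was 15.0% to 23.2% in cKO RV and 35.7% to 39.6% in WT RV. The part of these in the levels of the members was not tested.

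Likeness to Myl7 was ranked for 13536 genes averaging 1 CPM or more, as the root mean square difference of log2(CPM + 0.5) over the 28 libraries after each gene's median was subtracted. Myl4 was the nearest gene at 0.489, followed by Sln at 0.552, Mybphl at 0.69 and Bmp10 at 0.909. The next was Smoc1, a secreted matrix protein, at 1.42, so a gap followed Bmp10. The ranks 6 to 10 were taken by A2m, Peg10, Chrdl1, Cacna2d2 and RP23-411B7.7, at 1.44 to 1.48. Chrdl1, an antagonist of BMP ligands, had 8.32, 12.9, 9.86 and 8.2 CPM in cKO RV of animals 177, 180, 257 and 264, and at most 4.9 CPM in the 24 other libraries. Cacna2d2, a subunit of calcium channels, had 2.77, 18.4, 19.9 and 2.95 CPM in cKO RV, and at most 5.6 CPM elsewhere. Kcnj5 had rank 12244 and Kcnj3 rank 12353 of the 13536 genes. The ranking rests on the cKO RV libraries for which the members were chosen. Myl7, Myl4, Sln, Mybphl and Bmp10 reached an average of 1 CPM only through them, so that their nearness to each other restates the choice.

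In LV, which played no part in the choice of genes, 3 of the 6 members could be tested, since Myl7, Sln and Bmp10 did not pass the filter on low counts. Kcnj3 and Kcnj5 fell in cKO LV and Myl4 rose. The mitochondrial share of counts was 18.2% to 26.7% in cKO LV and 33.5% to 37.0% in WT LV, and its part in these differences was not tested. All 3 tested members were called between cKO and WT at an adjusted p under 0.05 in the quasi-likelihood F test of edgeR, in a comparison in which 35.8% of the 16410 genes tested were called (19.7% higher and 16.1% lower in cKO).

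Kcnj3 had 12.5, 58.3, 43.3 and 44.4 CPM in LV of cKO animals 177, 180, 257 and 264, against 137, 158, 94.4, 121 and 110 CPM in LV of WT animals 248, 626, 636, 637 and 647. The groups did not overlap, and animal 177 had by far the lowest level. Kcnj3 fell by 1.64 ± 0.30 on the log2 scale (SE, adjusted p = 0.000794 by edgeR). Animal 177 had the lowest Myl2 of the LV libraries too (1800 TPM), and without it the difference was -1.35 ± 0.15 (adjusted p = 1.74e-05).

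Kcnj5 had 15.7, 27.2, 22.8 and 19.0 CPM in LV of cKO animals 177, 180, 257 and 264, against 50.1, 65.0, 43.2, 50.3 and 57.4 CPM in LV of WT animals 248, 626, 636, 637 and 647. All cKO libraries were below all WT libraries. It fell by 1.32 ± 0.16 on the log2 scale (SE, adjusted p = 2.65e-05 by edgeR) and was the member with the smallest p in this comparison.

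Myl4 had 1.3, 0.974, 1.54 and 1.38 CPM in LV of cKO animals, against 0.346, 0.73, 0.727, 0.8 and 0.557 CPM in LV of WT animals, in the same order of animals. These are 28 to 49 counts per cKO library and 7 to 25 per WT library. The groups did not overlap, and Myl4 rose by 1.04 ± 0.33 on the log2 scale (SE, adjusted p = 0.0243 by edgeR). The call was lost with no filter on low counts (adjusted p = 0.059) and on leaving out WT animal 248 or 647 or cKO animal 257 or 264 (adjusted p = 0.0564, 0.052, 0.0608 and 0.0527), with the rise at 0.89 to 1.03 in these 5 fits. The scale of the rise in LV was thus small beside the levels of Myl4 in cKO RV of animals 177, 180 and 257.

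With TN-401, Kcnj5 rose in LV at each dose and Kcnj3 at the higher dose. Kcnj3 averaged 39.6 ± 19.3 CPM in cKO, 62.6 ± 4.82 CPM in 3E13, 98.1 ± 8.07 CPM in 6E13 and 124 ± 24.4 CPM in WT LV (SD, n = 4, 4, 3 and 5). Kcnj5 averaged 21.2 ± 4.96, 39.7 ± 3.61, 48.3 ± 5.56 and 53.2 ± 8.28 CPM in the same groups. The order of the means in CPM was thus cKO, 3E13, 6E13 and WT for each of the GIRK subunits. In deposited TPM, Kcnj5 averaged 8.71 in 6E13 LV and 8.64 in WT LV, so its order was not kept between these groups. Neighbouring groups were compared to see which steps exceeded the spread.

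In LV of 3E13 animals 181, 182, 252 and 253, Kcnj5 had 39.0, 34.8, 42.7 and 42.2 CPM, all above the highest cKO library (27.2 CPM). It rose by 0.92 ± 0.16 against cKO (log2, SE, adjusted p = 0.00429 by edgeR), the only member called, where 11.8% of genes tested were called (5.52% higher and 6.25% lower at 3E13). Kcnj3 had 60.6, 58.1, 62.3 and 69.4 CPM in these libraries, which overlapped with cKO at 58.3 CPM, and its difference from cKO was 0.67 ± 0.31 (adjusted p = 0.165). When only the 3E13 and cKO libraries were in the fit, the call of Kcnj5 was lost (adjusted p = 0.0667) with the same size of difference, 0.91.

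In LV of 6E13 animals 250, 631 and 645, Kcnj3 had 97.5, 90.4 and 106 CPM and Kcnj5 had 49.9, 42.1 and 52.9 CPM, all above all cKO libraries. Kcnj3 rose by 1.32 ± 0.33 (log2, SE, adjusted p = 0.0145) and Kcnj5 by 1.20 ± 0.17 (adjusted p = 0.000782, both by edgeR), and 16.8% of genes tested were called (8.65% higher and 8.16% lower at 6E13). Myl4 differed from cKO by -0.54 ± 0.38 (adjusted p = 0.364) at 6E13 and by -0.38 ± 0.35 (adjusted p = 0.521) at 3E13. The call of Kcnj3 was lost without 6E13 animal 645 (1.25, adjusted p = 0.0587) and when only the 6E13 and cKO libraries were fitted (1.31, adjusted p = 0.133). The comparisons of 3E13, 6E13 and WT with cKO share the cKO libraries.

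Set against WT, none of the 3 tested members was called in LV at 3E13 (2.50% of genes were called), at 6E13 (0.0853%) or between 6E13 and 3E13 (0.0122%), by edgeR. At an unadjusted p under 0.05, 2 members were found at 3E13 against WT and 0 in the other comparisons named. DESeq2 called 1 member, Kcnj3, at 3E13 against WT, and 0 in the others, and limma on TPM called 0 in all 3. For Kcnj3 at 3E13, all 4 libraries were below all WT libraries, and the difference from WT was -0.97 ± 0.30 (adjusted p = 0.102 by edgeR). Kcnj5 at 3E13 differed from WT by -0.40 ± 0.15 (adjusted p = 0.19). At 6E13 the differences from WT were -0.32 ± 0.32 for Kcnj3 and -0.12 ± 0.16 for Kcnj5 (adjusted p = 0.995 for each by edgeR). For Kcnj3 all 6E13 libraries were above all 3E13 libraries in LV, with a difference of 0.65 ± 0.33 (adjusted p = 0.951 by edgeR). For Kcnj5 these groups overlapped. The share of all genes separated without overlap was not counted in LV.

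**Figure D4:**
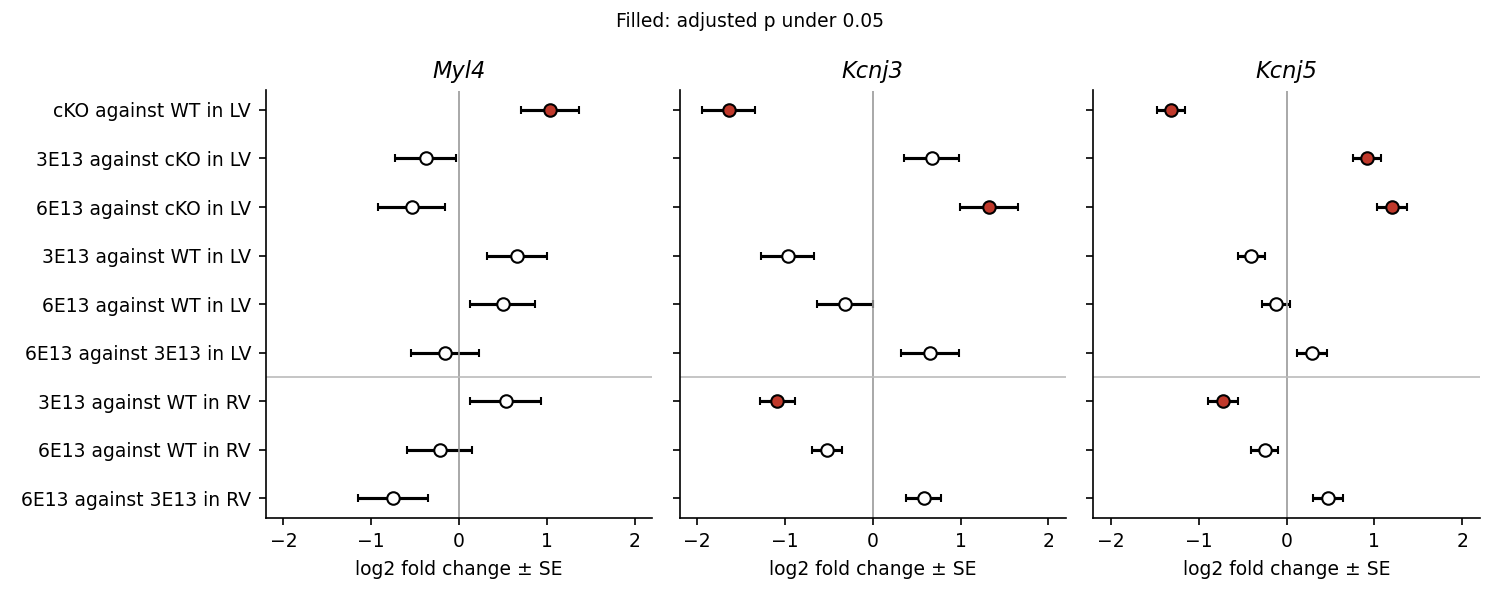
Log2 fold change ± SE of the 3 tested members in each comparison of LV (upper 6) and of RV without the cKO libraries (lower 3), by edgeR. Filled points have an adjusted p under 0.05. The points of Kcnj3 and Kcnj5 lie left of 0 in cKO against WT and right of 0 for each dose against cKO in LV, and Myl4 is called only in cKO against WT.

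The RV values of the GIRK subunits in cKO animals belong to the libraries that led to the choice of genes and are given as a description. Kcnj3 had 24.8, 73.7, 50.0 and 32.2 CPM in cKO RV of animals 177, 180, 257 and 264, against 99.2, 154 and 146 CPM in WT RV of animals 636, 637 and 647. Kcnj5 had 18.6, 29.0, 27.9 and 14.8 CPM in cKO RV, against 41.6, 58.4 and 59.2 CPM in WT RV. In CPM, which carry the TMM scaling, the groups did not overlap for either gene. In deposited TPM, which do not carry it, Kcnj3 (11.3, 21.1, 19.2 and 11.0 in cKO RV, against 19.1, 30.6 and 27.2 in WT RV) and Kcnj5 (6.02, 6.56, 8.19 and 3.76, against 6.6, 8.4 and 8.25) overlapped. Each scale counts mitochondrial transcripts, and the reason for the difference between scales was not tested. Within cKO RV, animals 180 and 257 had the higher levels of each subunit, and these animals also had the highest Myl7.

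Among RV libraries without cKO, Kcnj3 and Kcnj5 were lower at 3E13 than in WT. Kcnj3 had 61.1 and 61.8 CPM in RV of 3E13 animals 181 and 253, against the WT values above, and fell by 1.09 ± 0.20 on the log2 scale (SE, adjusted p = 0.00994 by edgeR). Kcnj5 had 29.5 and 33.7 CPM in these libraries and fell by 0.72 ± 0.17 (adjusted p = 0.0278). The 2 calls stood beside 13.6% of 16427 genes called, and Myl4 differed by 0.53 ± 0.40 (adjusted p = 0.44). There are only 2 such 3E13 libraries, and on leaving out animal 181 or 253 neither subunit was called (adjusted p = 0.0788 to 0.19), in fits where the lone 3E13 library is assumed to vary like the other groups. Without animal 181 or 253 the number of all genes called was 676 or 579, beside 2241 with both. Kcnj5 was lost too without WT animal 637 or 647 (adjusted p = 0.0828 and 0.064). In a fit of all 12 RV libraries the differences were -1.08 and -0.71 with adjusted p of 0.12 and 0.146.

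At 6E13, Kcnj3 had 75.7, 94.4 and 107 CPM and Kcnj5 had 40.2, 41.1 and 51.3 CPM in RV of animals 250, 631 and 645. Against WT RV, Kcnj3 differed by -0.52 ± 0.17 (adjusted p = 0.175) and Kcnj5 by -0.25 ± 0.15 (adjusted p = 0.446 by edgeR). None of the 3 tested members was called at 6E13 against WT (1.93% of genes were) or at 6E13 against 3E13 (0.286%) in RV by edgeR, by DESeq2 or by limma on TPM. At an unadjusted p under 0.05, 1 was found in the first comparison and 2 in the second. In CPM, the means stood in RV, as in LV, in the order cKO, 3E13, 6E13 and WT. They were 45.2 ± 21.8, 61.4 ± 0.513, 92.4 ± 15.8 and 133 ± 29.7 CPM for Kcnj3 (SD, n = 4, 2, 3 and 3). For Kcnj5 they were 22.6 ± 6.94, 31.6 ± 2.98, 44.2 ± 6.14 and 53.1 ± 9.95 CPM. In deposited TPM this order did not hold in RV, where Kcnj3 averaged 15.6 in cKO and 15.1 in 3E13. Kcnj5 averaged 6.13, 5.54, 8.07 and 7.75 TPM in cKO, 3E13, 6E13 and WT RV. The 6E13 and WT libraries overlapped for each gene. The 3E13 libraries were below all 6E13 libraries for each, but neither gene was called. The share of all genes so separated was not counted for these small groups, so nothing is drawn from this separation. Beside the cKO RV libraries, in CPM and as a description only, Kcnj5 was higher and Myl4 lower in all 3E13 libraries, where 20.8% and 20.1% of genes averaging 1 CPM or more were separated in these directions. Kcnj3 and Kcnj5 were higher and Myl4 and Bmp10 lower in all 6E13 libraries than in all cKO libraries, where 19.5% and 17.6% of genes were. In the comparison with 6E13, Myl4 and Bmp10 averaged 1 CPM or more only through the cKO RV libraries, so their separation restates the choice. That of Bmp10 rests on 6 counts in cKO animal 264 beside 4 in 6E13 animal 250, both near the floor. In deposited TPM, Kcnj3 and Kcnj5 overlapped with cKO at each dose.

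Within animals that had both ventricles, no member was called between RV and LV in WT, 3E13 or 6E13 animals, by edgeR with the animal as a block, by DESeq2 or by limma. The share of 16962 genes called was 0.0354% in WT, 2.70% in 3E13 and 0.0177% in 6E13 animals. In these fits 4 members passed the filter, Bmp10 among them at no more than 15 counts in any library, and at an unadjusted p under 0.05 there was 1 member in WT, 1 in 3E13 and 0 in 6E13 animals. Kcnj3 in WT was higher in RV in 3 of 3 animals, with a difference of 0.28 ± 0.09 (adjusted p = 0.326 by edgeR). Kcnj5 at 3E13 was lower in RV in 2 of 2 animals, at -0.36 ± 0.10 (adjusted p = 0.086). Whether the RV to LV difference of a member changed with the dose was tested as an interaction against WT, and no member passed (the smallest adjusted p was 0.34 by edgeR, for Kcnj5 at 3E13). The RV of animal 636, the WT library with 13 counts of Myl7, had a partner LV library with 0 counts.

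**Figure D5:**
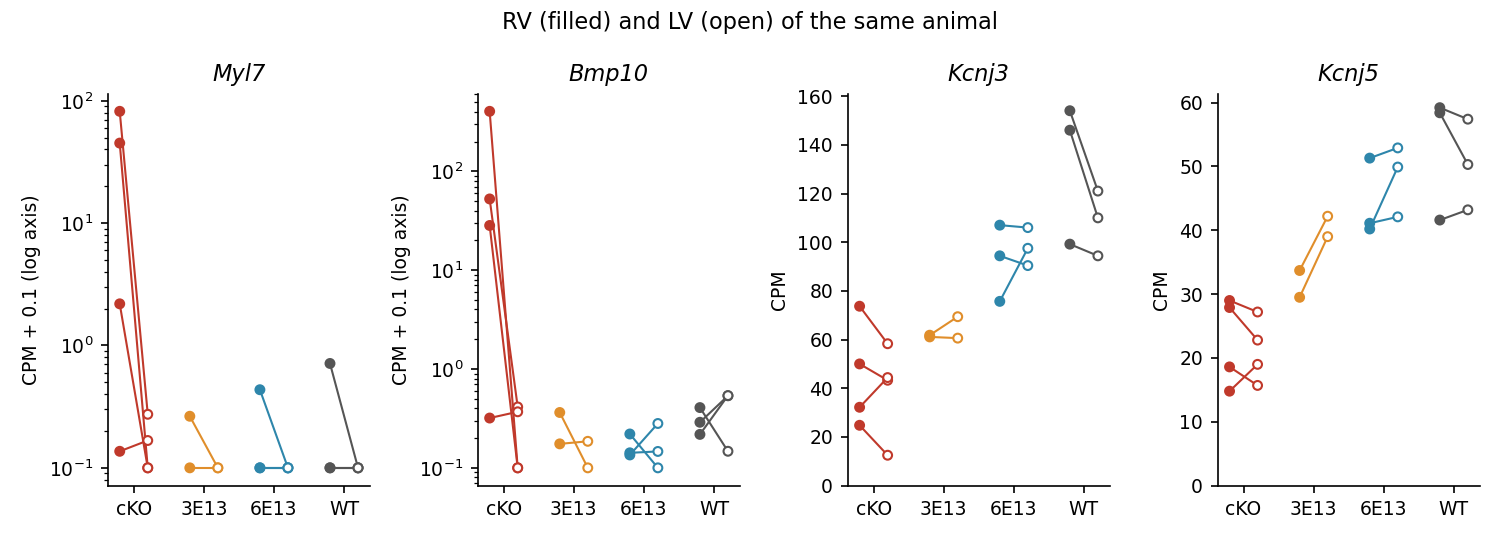
RV (filled) and LV (open) of the same animal joined by a line, for Myl7 and Bmp10 (log axis of CPM + 0.1) and for Kcnj3 and Kcnj5 (CPM). For Myl7 and Bmp10, 3 cKO animals have RV far above LV, and lines of the other groups stay low. For Kcnj3 and Kcnj5 the lines within an animal are short beside the distance between cKO and WT.

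The pathways around the members were read in LV, where tests could be run. Of 16 genes of the muscarinic and adenosine pathway that opens the GIRK channel, 13 were tested in cKO against WT, where 7 rose and 3 fell with a median log2 difference of 0.44, beside 0.05 over all genes, of which 19.7% rose and 16.1% fell. Those with the smallest adjusted p all encode G protein subunits: Gng2 (1.51 ± 0.17), Gnai3 (0.94 ± 0.14), Gng12 (0.56 ± 0.09) and Gnao1 (1.08 ± 0.17), at adjusted p of 1.79e-05, 0.00021, 0.00023 and 0.000301. Chrm2, the muscarinic receptor of heart muscle, fell by 0.54 ± 0.13 (adjusted p = 0.00375 by edgeR). Kcnj6 and Kcnj9, the other GIRK subunits, had at most 0.0511 and 0.163 TPM in cKO and WT RV. At 3E13 against cKO 0 genes of this list rose and 3 fell (5.52% and 6.25% of all genes), and at 6E13 1 rose and 4 fell (8.65% and 8.16%). Of the 6 resting fibroblast markers, 5 rose in cKO LV, 3 fell at 3E13 and 3 fell at 6E13, and their part in the changes of this list was not tested.

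Of 17 genes of the BMP10 pathway, 16 were tested in cKO against WT LV, where 6 rose and 1 fell with a median of 0.14, beside 19.7% and 16.1% of all genes. Id2, a target gene of BMP signals, rose by 1.69 ± 0.17 (adjusted p = 6.47e-06 by edgeR), Smad1, which carries the signal, by 0.72 ± 0.12 (adjusted p = 0.00051), Id3 by 0.81 ± 0.15 (adjusted p = 0.000853) and Acvrl1, the receptor ALK1, by 0.56 ± 0.12 (adjusted p = 0.00173). These LV libraries held at most 9 counts of Bmp10 in cKO. In RV, by CPM, 8 of the 15 genes of the list averaging 1 CPM or more were higher in all cKO than in all WT libraries. Another 2 were lower in all, beside 22.3% and 23.6% of all genes. Id2 had 54.8, 32.8, 38.9 and 39.0 TPM in cKO RV of animals 177, 180, 257 and 264, against 3.98, 3.96 and 6.13 TPM in WT RV. All cKO RV libraries were above all WT RV libraries, and a relation of Id2 to Bmp10 was not tested. Gdf2, the circulating ligand BMP9, was at 0 in all cKO RV libraries.

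Sln belongs to the small regulators of the calcium pump, and 8 other genes of pumps, such regulators and the calcium-storing calsequestrins were listed. Of these, 7 were tested in cKO against WT LV, where 0 rose and 3 fell with a median of -0.95, beside 19.7% and 16.1% of all genes: Atp2a2, the pump of heart muscle (-1.07 ± 0.26, adjusted p = 0.00451), Pln (-0.95 ± 0.28, adjusted p = 0.0167) and Strit1, a peptide that raises pump activity (-1.48 ± 0.56, adjusted p = 0.0498, all by edgeR). In RV, Pln had 574, 790, 851 and 698 TPM in cKO animals 177, 180, 257 and 264, against 1290, 1290 and 1510 TPM in WT animals, while Sln reached 33.8 TPM in animal 180. Pln thus stayed above Sln by length-corrected level in each library.

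A list of 13 genes held other myosin light chains, their kinases and the heavy chains Myh6 and Myh7. In cKO against WT LV, 2 of the 13 rose and 5 fell with a median of -0.06, the heavy chains giving 1 in each direction, beside 19.7% and 16.1% of all genes. Myh7, the slow myosin heavy chain, rose by 3.56 ± 0.48 (adjusted p = 6.98e-05), and Myl6, a light chain of smooth muscle and non-muscle cells, rose by 1.15 ± 0.23 (adjusted p = 0.0016 by edgeR). Mylk4, a kinase of the myosin light chain family, fell by 3.16 ± 0.43 (adjusted p = 8.72e-05), and Myl2 fell by 1.05 ± 0.23 (adjusted p = 0.00281). The atrial chain Myl4 and the ventricular chains Myl2 and Myl3 therefore went opposite ways in cKO LV, Myl3 having fallen by 0.87 ± 0.25 (adjusted p = 0.014 by edgeR).

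Of 17 other atrial genes, 15 were tested in cKO against WT LV, where 2 rose and 4 fell with a median of 0.17, beside 19.7% and 16.1% of all genes. Dkk3 rose by 4.04 ± 0.45 (adjusted p = 1.62e-05) and Nppa by 3.06 ± 0.51 (adjusted p = 4e-04), and Kcnk3, a background potassium channel, fell by 0.84 ± 0.13 (adjusted p = 0.00023 by edgeR). Stard10, a lipid transfer protein, fell by 1.44 ± 0.23 (adjusted p = 0.000318). Mybphl, which followed Myl7 in RV, had at most 0.0943 TPM in cKO LV and 0.0834 TPM in WT LV.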

How the data were processed

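The members and all gene lists were chosen with earlier results of these data known. The authors trimmed reads, quantified them with Salmon 1.8.0 on GRCm39 transcripts with the vector's PKP2 added and summed transcripts by gene, and they deposited expected counts without normalization. The deposited TPM, scaled to transcripts per library, and another deposited table of other values, the average effective length in bases, come from the same step. Per the labels, the RNA was polyA RNA, and the library kit named beside this depletes ribosomal RNA. Expected counts were rounded. The row without a gene symbol (at most 0.00097% of counts) was left out, and 0 columns belonged to other samples.

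LV was fitted with all 4 groups in 1 model, RV with the 8 libraries that were not cKO, and RV against LV in the 8 animals with both ventricles that were not cKO, with the animal as a block since both pieces came from it, by edgeR 4.0.16 in R 4.3.3 (low-count filter, TMM, quasi-likelihood F test, Benjamini-Hochberg over all genes tested, threshold 0.05). The step was tested on simulated data. SE is the fold change over the square root of its F. CPM used 1 TMM scaling over all 28 libraries. Libraries of the same group and ventricle were compared in 38 pairs, and the closest differed 17.9 times as much as counting noise (chi-squared per degree of freedom), so none was taken as a copy. Alternatives were RLE size factors, no filter, length offsets, DESeq2 1.42.0, limma 3.58.1 on log2(TPM + 1) and log2(TPM + 0.1) without mitochondrial transcripts, only the groups compared, cKO RV included, no block and each library left out. Named genes are the members, the 10 nearest to Myl7, up to 4 genes of each list with the smallest adjusted p in cKO against WT LV, and the targeted gene; Chrm2, Myl2, Myl3, Irx4, Tbx5, Mybphl, Kcna5, Sbk2, Kcnj6, Kcnj9, Gdf2, Upk3b, Msln and other single markers were named after their values were seen, as were the motifs searched. Promoters came from RefSeq's table (GRCm38.p6) and positions from GENCODE (GRCm39). Mrln was not analysed here.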

Additional observations from a re-analysis of the deposited data

Results flagged for a closer look

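Bmp10 in the RV of cKO animal 257 stood apart from its group, at 404 CPM, where the next library, that of animal 180, had 52.4 CPM and the lowest, that of animal 264, had 0.219 CPM. Myl7 in the LV of 3E13 animal 252 (0.126 CPM) and in the LV of WT animal 248 (0.148 CPM) each stood apart because all other libraries of the group were at 0, and each of these values is 3 counts, which is the limit that a count of 0 allows. Across the members 21 groups of 4 or 5 libraries were examined in this way and 3 stood apart. The chance rate of about 1 in 20 holds for normally spread values, which CPM near 0 are not, so no conclusion is drawn from the number. The cKO RV values of Bmp10 led to the choice of genes, so that flag is a description only.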

How the results depend on the processing

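Refitted under the alternatives, a member's log2 difference kept its direction and its side of the threshold 468 times, lost its call 18 times, gained one 3 times and changed sign 18 times. The fall of Kcnj3 and Kcnj5 in cKO LV against WT was called under all 16 alternatives, at -1.89 to -1.35 and -1.47 to -0.90. The number of members called changed in 5 comparisons. For cKO against WT in LV (3 members), it was 2 with no filter and 2 to 3 on leaving out libraries. For 3E13 against WT in LV, with 0 members called in the report, DESeq2 called 1 and the fit of only the 2 groups called 2. For 3E13 against cKO in LV (1 member) and 6E13 against cKO in LV (2 members), the fit of only the 2 groups called 0 and 1, and leaving out libraries gave 1 to 2 for the second. For 3E13 against WT in RV (2 members), limma called 1 at each pseudocount, the fit of all 12 RV libraries called 0, and leaving out libraries gave 0 to 2. The cause of these changes was not tested.

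Differences that changed sign were all uncalled. For 6E13 against 3E13 in LV, Myl4 had 0 with length offsets and 0.05 and 0.09 with limma on TPM + 1 and + 0.1, and -0.30 to 0.12 on leaving out libraries (above 0 without 3E13 animal 182 or 6E13 animal 250). For 6E13 against WT in LV, Kcnj5 had 0 and 0.01 with limma. For RV against LV at 3E13, Kcnj3 had 0.05 with length offsets and with limma at each pseudocount and -0.16 to 0.01 on leaving out an animal, and Bmp10 had -0.19 to 5.82 (each opposite in sign without animal 253). For RV against LV at 6E13, Bmp10 had -0.01 and -0.03 with limma, -0.05 with no replicate block and -1.38 to 1.90 on leaving out an animal, where Kcnj3 had -0.18 to 0.03 and Myl4 -0.37 to 0.12 (opposite in sign without animal 250, and for Myl4 without animal 645). Leaving out the animal block changed no call of a member, and the fits with and without the block called 6 and 0 genes in WT, 458 and 153 in 3E13 and 3 and 1 in 6E13. The genes called among all genes at 3E13 against cKO in LV were 1932 in the report, 49 in the fit of only these groups and 2953 by DESeq2, and at 6E13 against cKO in LV they were 2759, 305 and 3675. At 3E13 against WT in LV they were 411, ranging from 175 (limma) to 1776 (only these groups), and in RV 2241, ranging from 579 (without 3E13 animal 253) to 3049 (DESeq2). With each library left out included, they were 14 (2 to 182) at 6E13 against WT and 2 (0 to 46) at 6E13 against 3E13 in LV, 317 (28 to 1144) and 47 (2 to 558) in RV, and 6 (0 to 217), 458 (1 to 849) and 3 (0 to 103) for RV against LV in WT, 3E13 and 6E13. Depth limits Myl7, Sln and Bmp10 outside cKO RV, where no library held more than 15 counts of any of them.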
